A study of Mus musculus with 27 samples.

Results

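The genes described here are 35 genes of G2 phase and mitosis, taken by symbol from the deposited expression table, which lists 19069 genes with a symbol. All 35 were found, and all 35 passed the filter on low values that left 13297 genes for testing. They cover the kinase CDK1 and its cyclins, the other mitotic kinases, the passenger complex, the kinetochore, the spindle, the cytokinesis machinery, the exit from mitosis, chromosome structure and the transcription factors that switch the set on.

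Bulk RNA was sequenced from cells of C57/B6 mouse bone marrow in 27 libraries, 3 in each of 9 groups. The marrow cells received 5 Gy of protons in FLASH mode (delivered at an ultra-high dose rate), 5 Gy of standard protons, or no irradiation. All groups were then grown for 7 days with 10 ng/ml CSF-1, the growth factor that turns marrow precursors into macrophages, and kept for 2 more days in control medium (M0), 100 ng/ml LPS (M1) or 20 ng/ml IL-4 (M2). Irradiation thus came before the culture that yields macrophages, and the RNA was read after both culture steps. The age and sex of the mice and the number of animals are not given in the sources used here, nor whether the 3 libraries of a group came from separate cultures, so the p-values measure only the spread between these libraries.

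Entry into mitosis is driven by CDK1 bound to cyclin B, whose genes belong to a set that is transcribed late in the cell cycle. Repressor complexes of the DREAM family hold these promoters silent in resting cells and after p53 activation, through a promoter element called CHR (cell cycle genes homology region), while NF-Y binds CCAAT boxes beside it and B-Myb and FOXM1 activate the set in G2. CSF-1 is mitogenic for macrophage precursors, and LPS is known to arrest the growth of cultured macrophages. In bulk RNA, fewer dividing cells and less RNA of these genes per cell cannot be told apart.

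The promoters show what the set shares in sequence. RefSeq promoter windows of 300 bases (250 before to 50 after the gene start, build GRCm38.p6) were matched by symbol for 30 of the 35 genes. Ccna2, Aurkb, Tpx2, Kif20a and Foxm1 had no window. The CHR letters TTTGAA stood, on either strand, in 23 of the 30 genes, and in 78.1% of their 32 windows against 17.9% of all 32851 windows. CCAAT, the NF-Y box, stood in 23 genes too (78.1% of the windows against 37.4% of all), and 20 genes held both (68.8% against 7.0%). The variant letters TTCGAA were found in 3 genes (9.4% of windows against 1.6%) and TTTAAA in 9 (28.1% against 13.2%). CCAAT and TTTGAA can overlap by their end base, and a match is only a match of letters. The 6 promoters below are those of members with a single window and a CHR match within 60 bases before the start, shown as the 120 bases that end at the start, in the direction of the gene. Capitals mark TTTGAA and CCAAT on either strand, so that TTCAAA and ATTGG are the same motifs read on the other strand.
Cdc20 (chr4:118437344-118437463, minus strand): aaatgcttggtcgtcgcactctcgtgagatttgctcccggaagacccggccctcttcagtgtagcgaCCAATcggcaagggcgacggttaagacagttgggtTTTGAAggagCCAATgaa
Cdk1 (chr10:69352913-69353032, minus strand): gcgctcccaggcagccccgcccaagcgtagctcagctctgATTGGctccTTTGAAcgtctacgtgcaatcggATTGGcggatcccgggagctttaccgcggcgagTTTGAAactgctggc
Espl1 (chr15:102296173-102296292, plus strand): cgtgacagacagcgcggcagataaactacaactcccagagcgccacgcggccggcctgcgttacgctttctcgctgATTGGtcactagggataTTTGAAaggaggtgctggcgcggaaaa
Kif11 (chr19:37376262-37376381, plus strand): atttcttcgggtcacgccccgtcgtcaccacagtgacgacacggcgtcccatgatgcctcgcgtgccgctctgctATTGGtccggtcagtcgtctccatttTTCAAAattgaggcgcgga
Top2a (chr11:99024190-99024309, minus strand): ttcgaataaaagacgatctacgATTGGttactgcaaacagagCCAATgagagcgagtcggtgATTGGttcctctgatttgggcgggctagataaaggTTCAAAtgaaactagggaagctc
Ube2c (chr2:164769809-164769928, plus strand): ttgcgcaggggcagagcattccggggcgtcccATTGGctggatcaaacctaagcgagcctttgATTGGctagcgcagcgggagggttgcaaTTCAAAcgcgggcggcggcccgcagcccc
In these 6 promoters the CHR letters nearest the start begin 15 bases (Cdk1) to 29 bases (Ube2c) before it, each with CCAAT letters upstream. The map of motif matches shows the same order in most of the other promoters that hold both, with the CHR letters close to or just past the start.

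**Figure D1:**
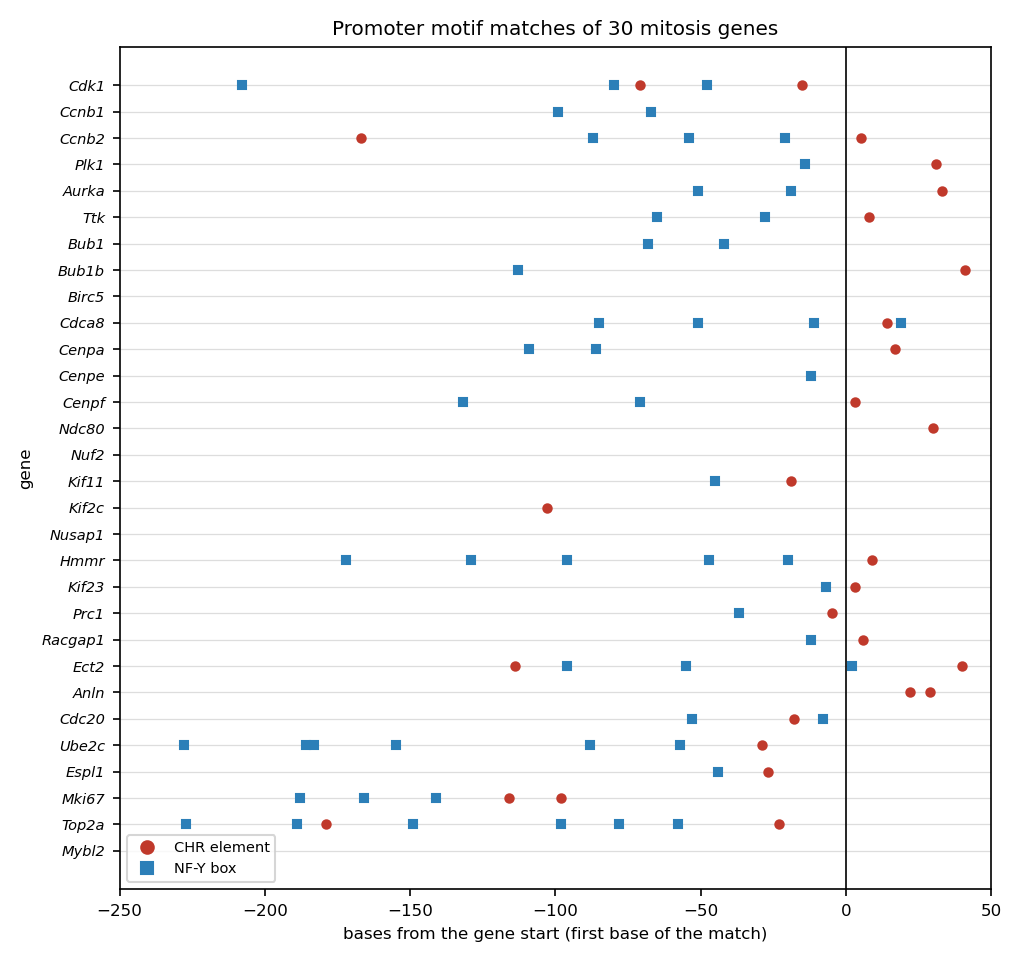
Matches of the CHR element (circles) and the NF-Y box (squares) on either strand in the promoter windows of 30 mitosis genes (1 window a gene, genes on the vertical axis), by distance in bases from the gene start (line at 0; negative values lie upstream). 20 of the 30 genes hold both motifs, and 7 hold no CHR match.

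Before the values, 6 libraries need naming. The label of each library was checked with 2 scales, for LPS and for IL-4, each built from the 100 strongest response genes of the agent in the non-irradiated groups. On each scale 0 stands for the mean of M0 and 1 for the mean of M1 or M2, without irradiation. The 9 non-irradiated libraries built the scales, so their own positions are no check. Of the 18 irradiated libraries, 13 followed their label. The other 5, all replicate 1, lay on the wrong side of 0.5, and they are called below the libraries at odds with their labels: those labelled FLASH M0 (0.775 on the IL-4 scale), FLASH M1 (-0.03 on the LPS scale), FLASH M2 (0.857 on the LPS scale), standard M1 (0.838 on the IL-4 scale) and standard M2 (0.853 on the LPS scale). The titles give every replicate 1 the code 0423, every replicate 2 the code 0507 and every replicate 3 the code 0512 across the 9 groups, and the sources used here do not say what the codes mark. All 5 thus carry 0423. The sixth, non-irradiated M2 replicate 3, stood apart in the mitosis genes: all 35 were lower in it than in replicates 1 and 2. Against the lower of those 2, the difference was 1.49-fold (Tpx2) to 9.72-fold (Mybl2), with a median of 3.7-fold. The neutrophil precursor gene Mpo (myeloperoxidase) was low in that library as well, at 2.07 CPM against 53.1 and 26.3. Assigned reads were 20.68 M to 25.84 M per library, and no library was shallow.

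The values are CPM (counts per total of reads, scaled by the authors with TMM factors so that libraries can be compared). The summed level of the 35 genes gives the outline. Without irradiation it was 900.1, 802.1 and 933.8 CPM in the 3 M0 libraries and 421.1, 410.9 and 405.7 in the 3 M1 libraries. The M2 libraries were spread over 867.7, 1262.4 and 247.8 CPM, the last being replicate 3. After FLASH protons the sum was 233.2, 437.2 and 373.9 CPM in M0, 377.5, 424.5 and 837.7 in M1, and 600.9, 408.3 and 445.7 in M2. After standard protons it was 526.3, 375.7 and 381.5 in M0, 265.8, 389.2 and 836.2 in M1, and 670.4, 349.1 and 406.7 in M2. All 6 irradiated M0 libraries thus lay below all 3 non-irradiated M0 libraries, and all 3 non-irradiated M1 libraries did too. In each irradiated M1 group, replicate 3 stood far above replicates 1 and 2, of which replicate 1 is at odds with its label.

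**Figure D2:**
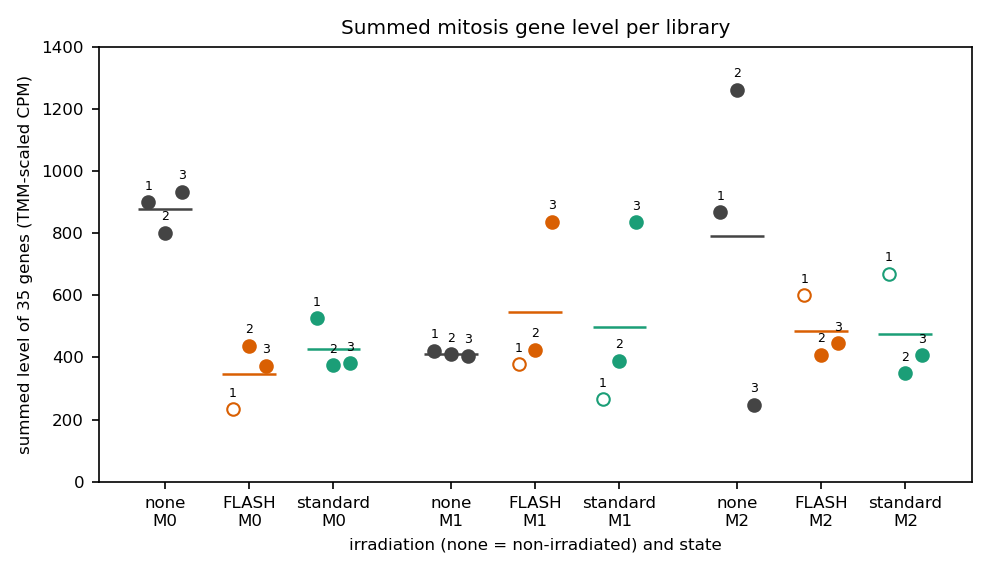
Summed level of the 35 mitosis genes (TMM-scaled CPM, vertical axis from 0) in each of the 27 libraries, by irradiation and state; numbers are replicate numbers, horizontal lines are group means, and open circles are the 5 libraries at odds with their labels. The non-irradiated M0 libraries sit between 802.1 and 933.8, above every irradiated M0 library, and non-irradiated M2 runs from 247.8 to 1262.4.

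The members moved together from library to library. The correlation of a member with the mean of the other 34, over the 27 libraries on the log2 scale, was 0.48 to 0.98 with a median of 0.92, and it was over 0.8 for 30 members. With group means taken out, the median was 0.94 and 33 members were over 0.8. The libraries of a group share their treatment, and the coefficients are descriptions only. Kif20a (0.48) and Cenpa (0.50) followed the rest least across all libraries, Hmmr (0.68), Tpx2 (0.79) and Espl1 (0.79) next. The heatmap of members and libraries shows the columns that the members share and the rows that break them.

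**Figure D3:**
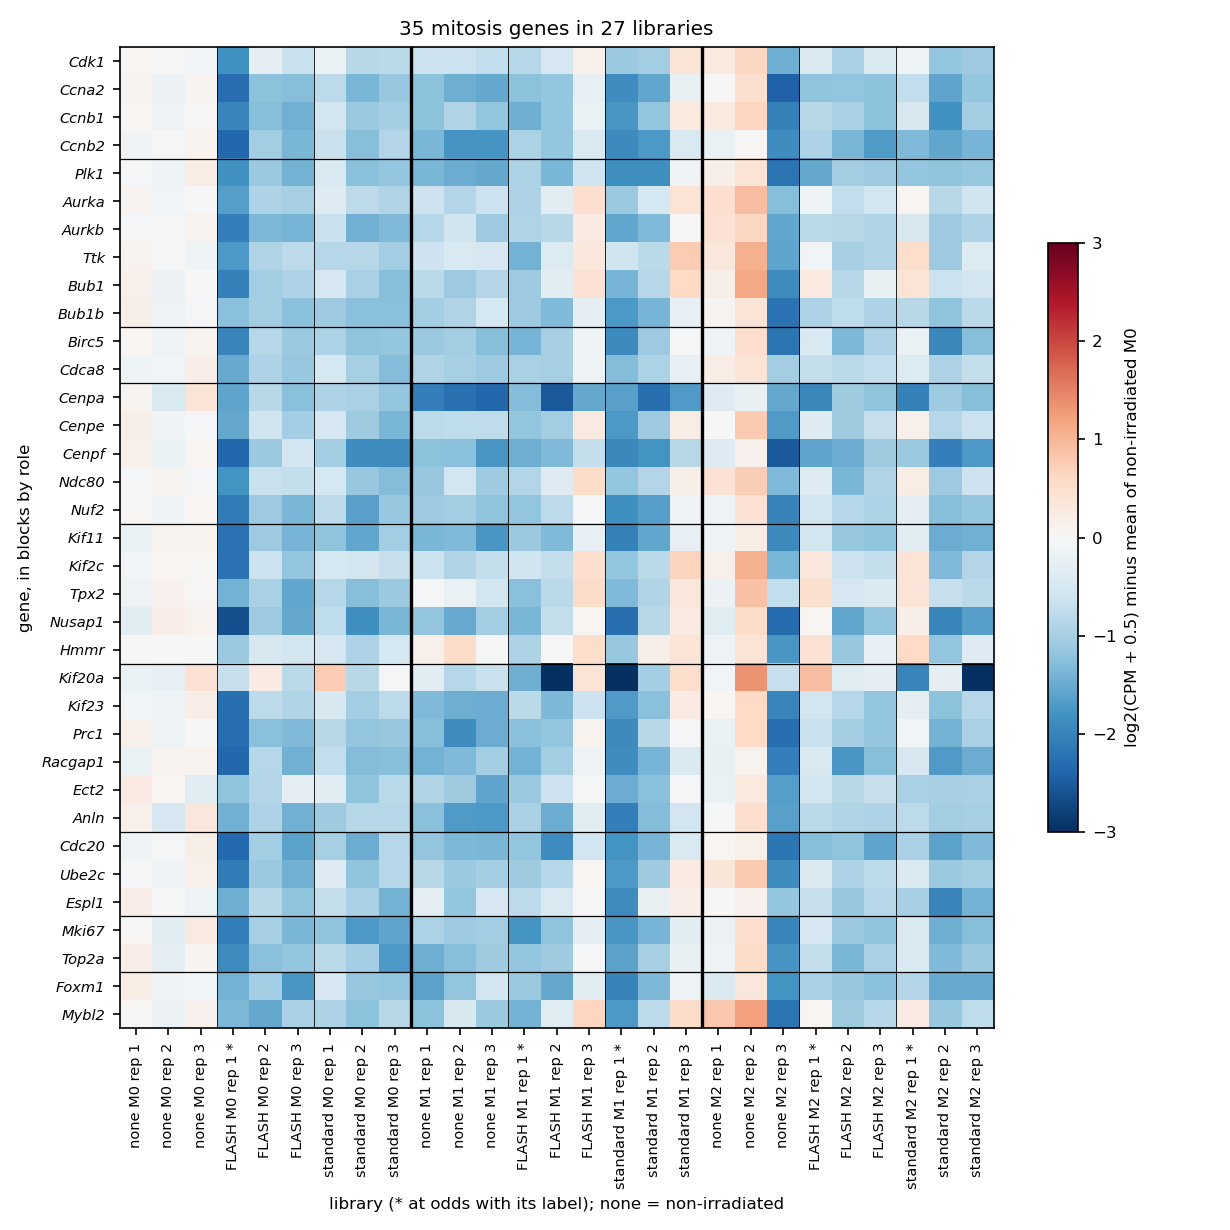
Levels of the 35 genes (rows, in blocks by role) in 27 libraries (columns, M0, M1 and M2 from left to right, libraries at odds with their labels starred), as log2(CPM + 0.5) minus their mean in non-irradiated M0, cut at -3 and 3. Whole columns are pale or dark together, non-irradiated M2 replicates 2 and 3 being the extremes of their group, while Cenpa, Hmmr and Kif20a break the columns.

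The spread within groups set what could be called. On the log2 scale, the median SD of the members was 0.16 in non-irradiated M0 and 0.20 in non-irradiated M1, near the 0.20 of all tested genes in both groups. It was 1.24 in non-irradiated M2, against 0.23 for all genes. In the irradiated groups it was 0.31 (FLASH M2) to 0.86 (standard M1). Tests below used limma with 1 fit of all 9 groups, in which these spreads are pooled, and a gene was called at a Benjamini-Hochberg adjusted p below 0.05 over all tested genes. Fold changes are log2 values on the log2(CPM + 0.5) scale, with the standard error (SE). Counts from fits without single libraries come without the share of all genes called in the same fit. They show only how far a count depends on single libraries.

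Without irradiation, the set was lower in LPS than in control medium. Of the 35 members, 34 had a lower mean in M1 than in M0, with a median of -1.10 against -0.01 over all tested genes, and in 33 members the 3 M1 libraries all lay below the 3 M0 libraries, which was so for 22.5% of all tested genes. At the threshold, limma called 6 members lower (Cenpa, Ccnb2, Anln, Cdca8, Kif11 and Plk1) and none higher, where 7.54% of all genes were called lower, and 17 members had an unadjusted p below 0.05. The number called depended on which libraries shared the estimate of the spread: it was 14 without the libraries at odds with their labels (16.9% of all genes) and 30 when the M0 and M1 groups alone were fitted (15.8%). With the replicate number as a block, or with replicates 2 and 3 alone, 3 were called (Cenpa, Ccnb2 and Anln), and with no filter on low values 4 (Kif11 and Plk1 were lost). Leaving out 1 library of these groups left 1 to 3 called, with 1 left without non-irradiated M1 replicate 2.

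CDK1 and its cyclins start mitosis. Ccnb2, a B-type cyclin, was at 16.7, 18.2 and 19.4 CPM in non-irradiated M0 and at 6.70, 4.96 and 4.99 CPM in non-irradiated M1, and it fell by 1.63 (SE 0.42, limma adjusted p = 0.0135). The other B-type cyclin of the set, Ccnb1, went from 32.4, 29.1 and 32.0 to 12.9, 16.3 and 13.5 CPM (-1.10, SE 0.54, adjusted p = 0.16), and cyclin A2 (Ccna2) from 46.1, 38.8 and 46.6 to 18.3, 15.5 and 14.8 CPM (-1.41, adjusted p = 0.0665). The kinase itself, Cdk1, differed less, from 31.9, 31.0 and 28.8 to 19.5, 19.3 and 18.2 CPM (-0.67, SE 0.48, adjusted p = 0.343). In each of these 4 genes the groups did not overlap, and only that of Ccnb2 passed the test.

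Of the mitotic kinases, Plk1, which acts at centrosomes, kinetochores and the midzone, fell from 20.5, 19.3 and 25.0 to 7.96, 7.38 and 7.10 CPM (-1.46, SE 0.49, adjusted p = 0.0445). The spindle assembly kinase Aurka, the passenger kinase Aurkb and the checkpoint kinases Ttk, Bub1 and Bub1b had fold changes of -0.93 to -0.53 and were not called. Cdca8 (borealin), which with survivin (Birc5) anchors Aurkb at the centromere, was at 21.5, 22.3 and 27 CPM in M0 and 12.3, 11.6 and 10.7 CPM in M1, and fell by 0.99 (SE 0.32, adjusted p = 0.0361). Birc5 was at -1.14 and was not called.

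Cenpa, the histone H3 variant that marks centromeres, gave the lowest value of the set. It was at 37.6, 25.5 and 46.4 CPM in non-irradiated M0 and at 8.24, 7.09 and 6.52 CPM in non-irradiated M1, so that the highest M1 library lay far under the lowest M0 library. It fell by 2.21 (SE 0.36, adjusted p = 0.00101). The motor Cenpe, the kinetochore and matrix protein Cenpf, and Ndc80 and Nuf2, both of the microtubule-binding NDC80 complex, lay at -1.41 to -0.77 and were not called.

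Among spindle proteins, the motor Kif11, which pushes the poles apart, fell from 13.4, 16.5 and 16.6 to 5.63, 5.86 and 4.27 CPM (-1.48, SE 0.49, adjusted p = 0.0391). The microtubule depolymerase Kif2c (-0.75) and the microtubule-bundling Nusap1 (-1.24) were not called. The exceptions of the set were also here. Tpx2, which activates Aurora A on the spindle, was at 35.9, 43.2 and 40.5 CPM in M0 and 38.4, 34.5 and 27.1 CPM in M1, so the groups overlapped (-0.26, SE 0.46, adjusted p = 0.733). Hmmr, which codes for a hyaluronan receptor that is also a spindle protein, was at 18.3, 18.1 and 18.3 CPM in M0 and 20.3, 26.9 and 17.8 CPM in M1 (0.22, SE 0.53, adjusted p = 0.81). It was the only member with a higher mean under LPS, also when the libraries were scaled to the same total or by median of ratios. The 95% interval of its difference, -0.87 to 1.31, includes both a fall and a rise.

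Of the cytokinesis genes, Anln (anillin), which organises the contractile ring, was at 33.2, 20.9 and 37.7 CPM in M0 and 12.2, 8.83 and 8.67 CPM in M1, and fell by 1.55 (SE 0.41, adjusted p = 0.0143). Prc1, which bundles the midzone microtubules, was at -1.55 (SE 0.55, adjusted p = 0.0574), and Kif23 and Racgap1, the centralspindlin pair, were at -1.42 and -1.26. Ect2, the exchange factor for RhoA in cytokinesis, was at -1.19 (adjusted p = 0.0507). Kif20a, a midzone motor with low counts, was at -0.61. The group's median was -1.34, against -0.75 for the spindle proteins and -0.83 for the mitotic kinases, and the difference between roles was not tested.

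Of the genes for leaving mitosis, Cdc20, an activator of the anaphase-promoting complex, went from 19.5, 20.9 and 24.1 to 9.12, 8.15 and 8 CPM (-1.30, adjusted p = 0.0608). Ube2c, its ubiquitin-conjugating enzyme, was at -0.98, and Espl1 (separase), which cuts cohesin at anaphase, at -0.65. The proliferation marker Mki67 was at 60, 46.5 and 70.4 CPM in M0 and 30, 27 and 28 in M1 (-1.03, SE 0.49, adjusted p = 0.149). Top2a, topoisomerase II alpha, was the member with the highest counts, at 122, 87.2 and 113 CPM in M0 and 37.9, 43.7 and 50.9 in M1 (-1.27, SE 0.45, adjusted p = 0.0579). Foxm1 and Mybl2 (B-Myb), the activators of the set, were at -1.12 (SE 0.46, adjusted p = 0.0944) and -0.94 (SE 0.68, adjusted p = 0.351).

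**Figure D4:**
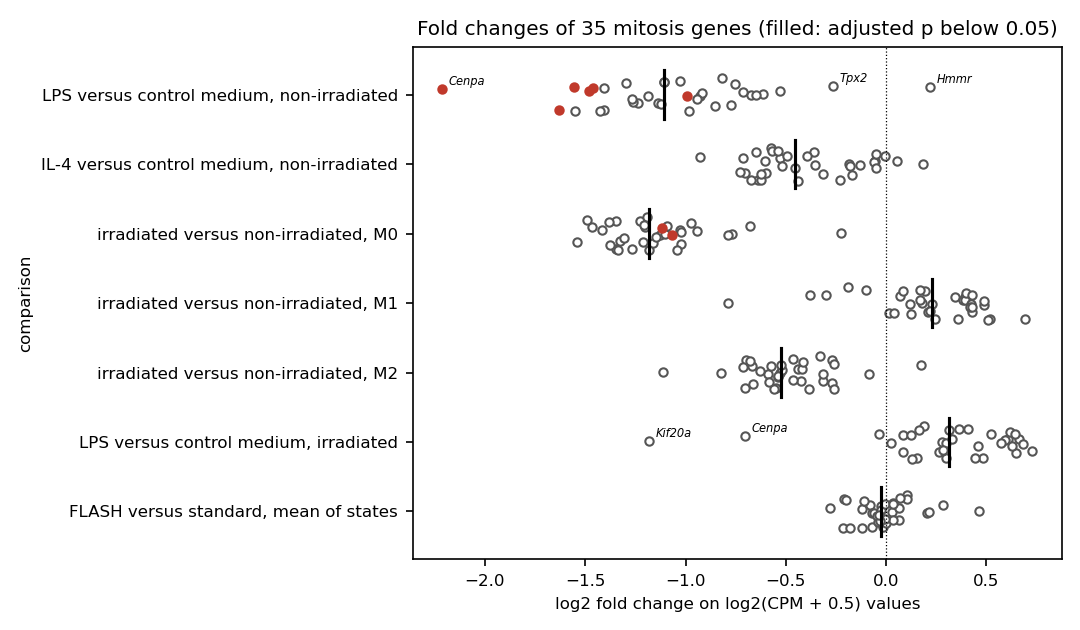
Log2 fold changes of the 35 mitosis genes (points, on log2(CPM + 0.5) values) in 7 comparisons; filled points are genes called at an adjusted p below 0.05, black bars are medians over the 35 genes, and vertical scatter within a comparison has no meaning. The medians are -1.10 for LPS without irradiation, -1.18 for irradiation in M0 and 0.23 for irradiation in M1.

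IL-4 without irradiation gave no call. The median over the members was -0.46, and limma called none of the 35 in either direction and found none at an unadjusted p below 0.05, where 9.83% of all genes were called. This value rests on replicate 3: without it the median was 0.24, and 30 of the 35 differences were above 0 in place of 2. The 7 index genes fixed for every comparison (Mki67, Top2a, Cdk1, Ccnb1, Plk1, Foxm1 and Mybl2) lay between -0.63 and -0.05. Mki67 shows the spread, at 51.3, 83.1 and 14.7 CPM in M2 against 60, 46.5 and 70.4 in M0. Replicate 2 of this group was the highest of all 27 libraries for 28 members, and replicate 3 was the lowest of the 9 non-irradiated libraries for 31.

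Set against IL-4 directly, LPS gave 3 members called lower, Cenpa (-1.50, SE 0.36, adjusted p = 0.00453), Anln (-1.16, SE 0.41, adjusted p = 0.0356) and Cdca8 (-0.86, SE 0.32, adjusted p = 0.0454), where limma called 14.6% of all genes lower. Their M2 levels were 27.1, 30.3 and 11.9 CPM for Cenpa, 29.0, 42.0 and 9.20 for Anln and 27.7, 31.2 and 11.2 for Cdca8. The lowest M2 library, replicate 3, lay above all M1 libraries for Cenpa (6.52 to 8.24 CPM), and inside their range for Anln (8.67 to 12.2) and Cdca8 (10.7 to 12.3). The index genes lay between -0.93 and -0.49 and were not called. Of the 3, Cenpa alone was called with the replicate number as a block (adjusted p = 0.0528 for Anln and 0.0656 for Cdca8), with replicates 2 and 3 alone, and when only the groups compared were fitted. The number called was 24 without M2 replicate 3, 1 without M1 replicates 2 or 3 or M2 replicates 1 or 2, and 2 without M1 replicate 1.

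In control medium, the set was lower after irradiation. All 35 members had a lower mean in the 6 irradiated M0 libraries than in the 3 non-irradiated ones, with a median of -1.18 against 0.00 over all genes, and 33 of them did not overlap between the groups, which was so for 8.72% of all genes. The 2 that overlapped were Kif20a and Ect2. At the threshold limma called 2 members, Cdca8 and Cenpa, where it called 2.71% of all genes lower, and 30 members had an unadjusted p below 0.05. Without the libraries at odds with their labels the same 33 members did not overlap, which was so for 10.3% of all genes. In that fit 6 members were called (Espl1, Cenpa, Cdca8, Tpx2, Mki67 and Kif11), and 6.03% of all genes were called lower. Fitting the M0 groups alone gave 29 called (4.92% of all genes). Neither call was kept with the replicate number as a block (adjusted p = 0.0589 for Cdca8 and 0.0781 for Cenpa) or with replicates 2 and 3 alone (0.0661 and 0.125), which left 0 members called by limma (28 and 16 at an unadjusted p below 0.05). Leaving out 1 library gave 0 to 5, with 0 called without FLASH M0 replicate 1, non-irradiated M0 replicates 1 or 3, or standard M0 replicates 2 or 3, 1 without FLASH M0 replicate 3, non-irradiated M0 replicate 2 or standard M0 replicate 1, and 5 without FLASH M0 replicate 2.

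Cdca8 was at 7.95, 12.1 and 10.4 CPM in FLASH M0 and 16.1, 11.5 and 9.26 in standard M0, all below the 21.5 to 27 of non-irradiated M0, and it fell by 1.07 (SE 0.28, adjusted p = 0.0311). Cenpa was at 11.5, 19.8 and 14.6 CPM in FLASH M0 and 18.5, 17.9 and 15.7 in standard M0, again with no overlap with its 25.5 to 46.4 CPM without irradiation, and fell by 1.12 (SE 0.31, adjusted p = 0.0439). Unlike under LPS, Cenpa was not the lowest of the set here.

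Mki67 was at 13.4, 28.9 and 22.2 CPM in FLASH M0 and 24.9, 17.3 and 19.2 in standard M0 (-1.49, SE 0.42, adjusted p = 0.0515). Top2a was at 28.2, 44.2 and 47.5 and at 60.6, 52.2 and 31.9 CPM (-1.31, SE 0.39, adjusted p = 0.0652). Both lay below all 3 non-irradiated M0 libraries in every irradiated library. Ccnb1 (-1.23, adjusted p = 0.161), Plk1 (-1.20, adjusted p = 0.126), Foxm1 (-1.16, adjusted p = 0.113), Mybl2 (-1.15, adjusted p = 0.323) and Cdk1 (-0.77, adjusted p = 0.345) had lower means without passing the test.

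Tpx2 did separate here, unlike under LPS. It was at 14.5, 19.9 and 13.1 CPM in FLASH M0 and 21.6, 16 and 18 in standard M0, against 35.9 to 43.2 without irradiation (-1.21, SE 0.40, adjusted p = 0.101). Hmmr also lay lower in all 6 irradiated libraries, at 8.15 to 13.0 CPM against 18.1 to 18.3, with the smaller value of -0.68 (adjusted p = 0.471). By role the medians were close to each other, from -1.07 for the midzone and cytokinesis genes to -1.40 for Mki67 and Top2a. Nusap1 had the lowest value (-1.54) and Kif20a the highest (-0.22).

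**Figure D5:**
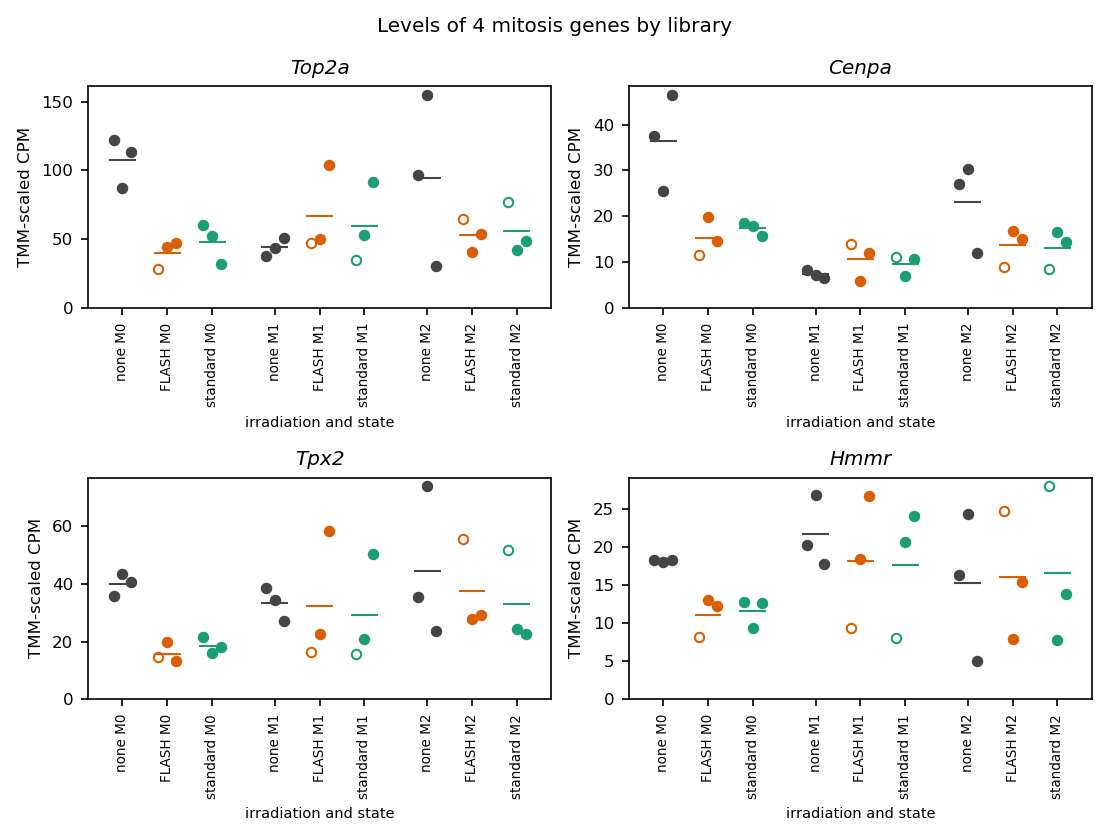
CPM of Top2a, Cenpa, Tpx2 and Hmmr in each library by irradiation and state (vertical axes from 0; lines are group means of 3 libraries; open circles are libraries at odds with their labels). Without irradiation, Cenpa is at 6.52 to 8.24 CPM in M1 against 25.5 to 46.4 in M0, while Tpx2 and Hmmr overlap between M1 and M0; in M0, all 4 genes are lower in every irradiated library than in any non-irradiated library.

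Under LPS, the irradiated libraries had no lower levels on the median. The median over the members was 0.23, 30 of 35 differences were above 0, and limma called none of the 35 and found none at an unadjusted p below 0.05 (5.2% of all genes were called). The index genes ran from -0.10 (Mki67) to 0.43 (Mybl2). Each arm was wide, and Top2a was at 46.9, 50.4 and 104 CPM in FLASH M1 and 34.7, 53.1 and 91.2 in standard M1, against 37.9 to 50.9 without irradiation. Replicate 3 was the highest library of its group for 34 members in FLASH M1 and for 34 in standard M1. Without standard M1 replicate 3 the median was 0.02, with 18 of 35 differences above 0, and without FLASH M1 replicate 3 it was 0.08. Without the libraries at odds with their labels it was 0.52.

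Irradiated M2 libraries had a median of -0.52. Limma called none of the 35, with 3 at an unadjusted p below 0.05 (Cenpa, Espl1 and Cdca8) and 3.0% of all genes called. The index genes lay between -0.70 and -0.46. Without the libraries at odds with their labels, separase (Espl1) was called lower (-0.99, SE 0.29, adjusted p = 0.0473), where 3.12% of all genes were called lower, a share near 1 of 35. Its levels were 8.47, 6.01 and 7.48 CPM in FLASH M2 and 6.69, 3.16 and 4.90 in standard M2, against 13.7, 15.3 and 5.89 without irradiation, so the groups overlapped through replicate 3 of non-irradiated M2. The value in M2 depends on which non-irradiated libraries are kept. Leaving out non-irradiated M2 replicate 3 gave a median of -1.17 and 6 called, and leaving out replicate 2 gave a median of -0.04, with 16 of 35 differences above 0 and none called by limma (0 at an unadjusted p below 0.05). Without replicate 1 the median was -0.29.

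Over the mean of the 3 states, all 35 members were lower after irradiation, with a median of -0.48 and a range of -0.71 to -0.23. None was called by limma, 13 had an unadjusted p below 0.05, and 12.3% of all genes were called. Cdca8 came closest (-0.48, SE 0.16, adjusted p = 0.0551), and Mki67 was at -0.68 (SE 0.25, adjusted p = 0.0734). Without the libraries at odds with their labels Espl1 was called lower (1 of 35, where 11.7% of all genes were, a larger share). Without non-irradiated M2 replicate 3 the number called was 21, and it was 7 without standard M1 replicate 3, 4 without FLASH M1 replicate 3, 3 without standard M2 replicate 1 and 1 without standard M0 replicate 1. How many of all genes were called in these fits is not given here. Taken by arm, FLASH against no irradiation had a median of -0.49 and no member called by limma (8 at an unadjusted p below 0.05; 7.72% of all genes called), and standard protons a median of -0.47 and none called (9 at an unadjusted p below 0.05; 7.88% of all genes). These 2 comparisons share the non-irradiated libraries, and without M2 replicate 3 they gave 14 and 12 called, and each gave 1 without replicate 3 of its own M1 group. The index genes ran from -0.68 to -0.36 in FLASH and from -0.72 to -0.39 in standard protons, each with Cdk1 highest.

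FLASH and standard protons, set against each other over the mean of states, differed by a median of -0.02 over the members, from -0.28 (Ttk) to 0.46 (Kif20a). Limma called no member and no other gene (0.0% of 13297), and no member had an unadjusted p below 0.05. The 95% interval was ± 0.59 around the difference for the median member, so that a difference of 0.59 either way was within it. For Mki67 it ran from -0.52 to 0.66 and for Top2a from -0.59 to 0.50.

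The change under LPS after irradiation was then set against that without, and no member passed the test of the difference. In the irradiated groups, M1 against M0 had a median of 0.31 over the members, with none called by limma, 1 at an unadjusted p below 0.05 (Cenpa) and 1.11% of all genes called. The index genes were at 0.08 to 0.63. Cenpa was at -0.70 there (SE 0.25, adjusted p = 0.0938). The interaction, which is the LPS change with irradiation minus that without, had a median of 1.46 and was above 0 for 34 members. Limma called none of them, and 0.278% of all genes, at the adjusted threshold. At an unadjusted p below 0.05 were 26 members, a cut for which the share of all genes is not given. Ccnb2 (1.78, SE 0.52), Cenpa (1.51, SE 0.44) and Cdca8 (1.29, SE 0.39) had the smallest p, at adjusted p-values of 0.17, 0.17 and 0.188. Top2a was at 1.73 (adjusted p = 0.229) and Mki67 at 1.39 (adjusted p = 0.391). The LPS change without irradiation, the irradiation change in M0 and the interaction all use the same non-irradiated M0 libraries. They are therefore not separate findings.

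Without the libraries at odds with their labels, the irradiated M1 libraries against irradiated M0 gave 3 members called higher and Cenpa called lower, where 18.5% of all genes were called higher and 18.6% lower. The 3 were Espl1 (0.90, SE 0.26, adjusted p = 0.0096), Tpx2 (0.97, SE 0.32, adjusted p = 0.0222) and Hmmr (0.86, SE 0.33, adjusted p = 0.0471), and Cenpa fell by 0.97 (SE 0.26, adjusted p = 0.00567). In the remaining libraries Cenpa was at 5.81 and 11.9 CPM in FLASH M1 and 7.02 and 10.6 in standard M1, against 14.6 to 19.8 in irradiated M0. Tpx2 was at 22.5, 58.3, 21 and 50.3 CPM against 13.1 to 21.6. Thus Cenpa was lower in M1 than in M0 with and without irradiation, while the median member was 0.49 higher in M1 among these irradiated libraries. The interaction still called no member in these libraries, with 30 at an unadjusted p below 0.05 and a lowest adjusted p of 0.0551.

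IL-4 after irradiation, against irradiated M0, had a median of 0.32, with no member called by limma, 1 at an unadjusted p below 0.05 and 6.52% of all genes called, and the index genes at -0.05 to 0.56. The median was -0.12 without the libraries at odds with their labels, so its direction turned with them. The interaction of irradiation with IL-4 had a median of 0.66, with none called, none at an unadjusted p below 0.05 and 0.0451% of all genes called. This value too rests on non-irradiated M2 replicate 3: without it the median was -0.01, with 15 of 35 above 0, and without replicate 2 it was 1.15.

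The rest of the mitotic machinery was counted in lists that exclude the 35 genes. Over all tested genes, limma called 7.54% lower and 9.87% higher under LPS without irradiation, and 2.71% lower and 1.32% higher after irradiation in M0, and the share of each list is given to be read against these. Among 30 spindle and kinesin genes, LPS without irradiation lowered 7 (23.3%, median -0.79), among them Stmn1 (-1.72, adjusted p = 0.00862), which destabilises microtubules, and Depdc1b (-1.44, adjusted p = 0.019). Irradiation in M0 lowered 3 (10.0%, median -1.07), with Depdc1b (-1.66, adjusted p = 0.00789) and Aspm (-1.64, adjusted p = 0.0231), a spindle pole protein. Of 16 regulators of mitotic CDK, LPS lowered 4 (25.0%), among them the CDK1 inhibitor kinase Wee1 (-0.93, adjusted p = 0.00425), and raised Ensa, and irradiation in M0 lowered 2 (12.5%), Lmnb1 (lamin B1; -1.80, adjusted p = 0.0173) and Ccnf (-1.04, adjusted p = 0.0478). Of 28 other kinetochore genes 1 was called under LPS (3.57%, Cenpt, -0.74), a share below that of all genes, and 0 after irradiation in M0 by limma (10 at an unadjusted p below 0.05), with medians of -0.57 and -0.80.

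Condensin and cohesin genes included Smc3 and Smc1a, both of the cohesin ring. Of 19, 4 were called lower under LPS (21.1%, against 7.54% of all genes; median -0.40) and 3 after irradiation in M0 (15.8%, against 2.71%; median -0.65), where Smc3 fell by 0.65 (SE 0.09, adjusted p = 0.00023). The 22 genes of the checkpoint and the anaphase-promoting complex had medians near 0 (-0.03 and -0.15). Most subunits of that complex are also made in resting cells. After irradiation in M0 limma called none (4 at an unadjusted p below 0.05). Under LPS, 4 fell (18.2%) and 2 rose (9.09%), and Pttg1 (securin) rose by 2.12 (SE 0.57, adjusted p = 0.0165), while its partner separase (Espl1) was at -0.65 without a call. Of 21 DREAM and MuvB factors, LPS lowered 2 (Tfdp2 and Rbl2) and raised 2 (Lin52 and E2f4), each 9.52% of the list and near the 7.54% and 9.87% of all genes, and after irradiation in M0 limma called none (5 at an unadjusted p below 0.05). Among 11 further cytokinesis genes LPS raised Chmp4b and lowered Arhgap11a (9.09% each, again near all genes), and irradiation in M0 gave no call by limma (2 at an unadjusted p below 0.05).

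DNA replication genes, which are switched on earlier in the cycle, had smaller medians than the mitosis genes. Of 40, limma called 1 lower under LPS (2.5%; Pcna, the polymerase clamp, -1.27, adjusted p = 0.0326; median -0.47) and none after irradiation in M0 (9 at an unadjusted p below 0.05; median -0.55). The difference between the 2 gene sets was not tested.

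Cdkn1a, which codes for the CDK inhibitor p21 and is a direct p53 target, was at 168 to 353 CPM in the 9 non-irradiated libraries and 478 to 858 CPM in the 18 irradiated ones, with no overlap. It rose by 1.65 in M0 (SE 0.15, adjusted p = 1.57e-06) and by 1.36 over the mean of states. Of 15 p53 arrest targets, 5 rose (33.3%, against 1.32% of all genes) and 1 fell (6.67%, against 2.71%) after irradiation in M0, and Phlda3 rose by 2.28. Among 6 CDK inhibitors tested, Cdkn1a alone was called in that comparison. Cdkn1a was at 634 CPM in FLASH M1 replicate 3 and 771 CPM in standard M1 replicate 3. These were the 2 irradiated libraries with the highest sums of mitosis genes. Whether Cdkn1a has a part in the levels of the mitosis genes was not tested. Of 8 genes of growth and G1 phase, irradiation in M0 raised Ccnd1 (cyclin D1; 1.42, adjusted p = 0.0305) and lowered Csf1r (-0.74, adjusted p = 0.0383), the receptor for CSF-1, which fell under LPS as well (-0.71, adjusted p = 0.0375).

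Markers of other marrow cells moved along with the mitosis genes in some comparisons. The macrophage markers were high in every library (summed level 8140 to 28200 CPM), so the labelled cell type was present. Early neutrophil precursors are dividing cells. The 16 neutrophil markers also include genes of later stages, so their sum is no measure of dividing cells. Their summed level was 622, 1190 and 984 CPM in non-irradiated M0, 394, 266 and 359 in M1 and 359, 252 and 79.9 in M2, against 40.8 to 252 in the irradiated libraries. In non-irradiated M0 the later genes Ngp, S100a9 and S100a8 had means of 214, 197 and 142 CPM. Mpo and Elane had means of 58.0 and 15.5 CPM there. These 5 genes were named after their values were seen. Irradiation in M0 lowered 12 of the 16 (75.0%, against 2.71% of all genes; median -3.90), and LPS without irradiation lowered 3 (18.8%, against 7.54%; median -1.49). Mpo was at 34.9 to 71.2 CPM in non-irradiated M0 and 0.14 to 2.00 in irradiated M0, and Elane, another primary granule gene, was listed at 0 in 3 irradiated libraries and in non-irradiated M2 replicate 3. B lineage markers (9 of 10 matched, 7 tested) summed to 33.2 to 149 CPM without irradiation and 6.17 to 23.9 with it, and irradiation in M0 lowered 5 (71.4% of those tested).

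Of 10 stem and progenitor markers tested, irradiation in M0 lowered 2 (20.0%, against 2.71% of all genes), Myb (-1.72) and Flt3 (-1.40), and LPS lowered 2 (20.0%, against 7.54%), Sox4 (-1.78) and Myb (-1.02). Erythroid and megakaryocyte markers (9 tested) had 2 lowered by irradiation in M0 (22.2%, against 2.71% of all genes), Itga2b and Gp9, and 1 raised by LPS (11.1%, against 9.87%), Gata1. Their summed level went the other way in M0. It was 1070 to 1530 CPM without irradiation, 2060 to 3870 after FLASH and 2440 to 3350 after standard protons. Irradiation in M0 lowered 3 of 8 dendritic cell markers (37.5%, against 2.71% of all genes), among them Siglech and Ccr7. The summed level of the dendritic cell markers was not lower in M0. It was 208 to 546 CPM without irradiation, 334 to 2030 after FLASH and 358 to 571 after standard protons. Both FLASH M0 maxima, 3870 and 2030 CPM, came from replicate 1, which is at odds with its label. FLASH M0 replicates 2 and 3 were at 2060 and 2950 CPM for the erythroid and megakaryocyte markers. For the dendritic cell markers they were at 334 and 675 CPM. Limma called 0 of 6 T and NK cell, 0 of 3 mast cell and basophil and 0 of 10 stromal and osteoblast markers there, with 1, 2 and 2 at an unadjusted p below 0.05. The part of these cells in the levels of the mitosis genes was not tested. In non-irradiated M2, replicate 3 was lowest of its group in both the neutrophil markers and the mitosis genes. Of the 16 neutrophil markers, 12 were lowest in that library. In the irradiated M1 groups, replicate 3 had the highest summed level of these markers as well, at 252 CPM in FLASH M1 and 212 CPM in standard M1, but the markers did not move as one. In FLASH M1, 14 of the 16 were highest in replicate 3, and in standard M1 4 were, while Mpo (0.856, 0.744 and 0.0375 CPM), Elane (0.27, 0.165 and 0.042) and Prtn3 were lowest there. Most of both sums came from Lcn2 (lipocalin 2; 112 and 123 CPM) and Mmp8 (neutrophil collagenase; 79.9 and 73.1 CPM). Without these 2 genes, named after their values were seen, the sum in replicates 1, 2 and 3 was 46.9, 18 and 60.4 CPM in FLASH M1 and 8.15, 24.4 and 16.8 CPM in standard M1. In both groups replicate 1 is at odds with its label.

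Kif20a needs care. It was listed at 0 in FLASH M1 replicate 2 and in standard M2 replicate 3 and at 0.135 CPM in standard M1 replicate 1, while the other members were above 1 CPM in those libraries. Its levels elsewhere ran from 1.04 to 15 CPM, and the SE of its fold change was 0.94 for LPS without irradiation.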

How the data were processed

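The authors deposited a table of signal values, which are TMM-scaled CPM (edgeR 3.36.0 in R 4.0.5, after kallisto 0.46.1, per the submitters' processing notes). They give a human build, GRCh38, although the samples are mouse, and coordinates come from RefSeq promoters alone. Columns sum to 929338.3 to 1072649.8. Dividing by the smallest step gave whole reads for 97.78% of values within 0.01 read, which is not all, so no count test was used. The 1 entry without a symbol (0.0065% of the total) was left out.

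Genes reaching 1 CPM in 3 libraries or more were tested with limma 3.58.1 (R 4.3.3, statmod 1.5.0; trend, robust, group means without replicate) on log2(CPM + 0.5), which understates changes of low genes. Irradiated comparisons average FLASH and standard. The fitting code was tested on simulated data. Named genes are called members (at most 12), fixed index genes (Mki67, Top2a, Cdk1, Ccnb1, Plk1, Foxm1, Mybl2), up to 2 called genes of each list in each direction, and Cdkn1a. Other members were named after their values were seen. Members and lists were chosen with earlier results of these data known. Alternatives were other pseudocounts, filters, scalings and variance fits, a replicate block, leaving out libraries, and fitting the compared groups alone.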

Additional observations from a re-analysis of the deposited data

How the results depend on the processing

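Counts below are members called of 35, against the reported 6 (LPS without irradiation), 3 (LPS against IL-4), 2 (irradiation in M0) and 0 (all others). The share of all genes called is not given beside them here, and it moves with the setting too. For LPS without irradiation, 7.54% of all genes were called lower in the reported fit and 16.9% without the libraries at odds. For irradiation in M0 these shares were 2.71% and 6.03%. The counts alone therefore do not show a change particular to the members. For LPS without irradiation, scaling to the same total gave 13, which also shifts the median of all genes to -0.15 (members -1.25), the libraries without those at odds with their labels 14, no filter 4, replicate numbers 2 and 3 only 3, and only the groups compared 30. For LPS against IL-4, no filter gave 2, replicate numbers 2 and 3 only gave 1, and only the groups compared 1. For irradiation over the mean of states, median-of-ratios scaling gave 1, the same total 1, and leaving out the libraries at odds 1, as it did for standard protons (1). For irradiation in M0, a pseudocount of 1 gave 5, a pseudocount of 0.1 gave 1, no filter 1, median-of-ratios scaling 4, the same total 9, leaving out the libraries at odds 6, replicate numbers 2 and 3 only 0, and only the groups compared 29. Leaving out the libraries at odds gave 1 for irradiation in M2 and 4 for LPS after irradiation, where replicate numbers 2 and 3 only gave 3. Some of these settings also have fewer samples, and the cause of the moves was not tested.

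With a replicate block, 3 members were called for LPS without irradiation, 1 for LPS against IL-4 and 0 for irradiation in M0, and no other count changed. Deviations from group means seldom correlated over 0.1 between same-numbered libraries (9 of 108 pairs, median -0.1, highest 0.783, against 71 of 216 pairs of different number). The group means included the libraries at odds with their labels, all replicate 1, so this check cannot exclude pairing. The numbers, which go with the title codes 0423, 0507 and 0512, were not used to pair samples outside the block.

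Leaving out 1 library gave 1 to 3 for LPS without irradiation, 1 to 24 for LPS against IL-4, 0 to 21 for irradiation over the mean of states, 0 to 14 for FLASH, 0 to 12 for standard protons, 0 to 5 for irradiation in M0, 0 to 6 in M2 and 0 to 1 for LPS after irradiation, and 0 throughout for the others. The highest values for LPS against IL-4, the 3 means of states and M2 came without non-irradiated M2 replicate 3. The share of all genes called in each of these fits is not given here, so the counts show only dependence on single libraries. For LPS against IL-4, the fold change of Mki67 ran from -1.19 without non-irradiated M2 replicate 3 to 0.036, a turn of sign, without M2 replicate 2.

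Leaving out that replicate 3 along with the libraries at odds was chosen after the members' own values had been seen, so it supports nothing. It gave 28 for LPS without irradiation, 1 for IL-4 (Mybl2, higher), 32 for LPS against IL-4, 31 for irradiation over the mean of states, 19 for FLASH, 26 for standard protons, 27 for irradiation in M0, 3 higher in M1, 29 lower in M2, 13 for LPS after irradiation (12 higher and 1 lower) and 25 for the interaction with LPS. FLASH against standard stayed at 0. The share of all genes called in this fit is not given here.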
